A study of Mus musculus with 4 samples.

Results

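Mir302c and Mir302d are microRNA genes of the miR-302 cluster on mouse chromosome 3, a group of small hairpin genes known for its expression in pluripotent cells. They were followed in mouse embryonic stem (ES) cells and in embryoid bodies (EBs), the cell aggregates in which ES cells differentiate. Each was read by a single probe set, and these were 2 of the 296 microRNA genes and of the 19938 genes that the array annotation names by 1 symbol. Both were picked from their measured values, because each was lower with either ligand than in untreated EBs, so those differences are given as a description. The study hybridised 4 Affymetrix arrays, 1 per condition. They held undifferentiated, untreated ES cells of the D3 line at day 0, untreated EBs at day 7, EBs given all-trans retinoic acid (RA), and EBs given bexarotene. RA binds the retinoic acid receptors (RARs), and bexarotene binds their partners, the retinoid X receptors (RXRs). EBs spent 2 days as hanging drops and 5 days more in culture. Bexarotene was used at 50 nM. The labels give RA at 5 µM and the article gives it at 10 nM, so the doses of the ligands were not matched by either source. No condition had a second array, so no difference below has a replicate check and no p-value was computed. A difference of 1.5-fold, 0.585 on the log2 scale, was used to count genes.

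In background, a microRNA gene is transcribed as a long primary RNA, from which Drosha and Dgcr8 cut a hairpin from which Dicer then frees the short mature strands. A mature strand in an Argonaute protein pairs with messenger RNAs mainly through its seed, bases 2 to 8 from its 5′ end, and lowers their output. The miR-302 cluster is known for high expression in the primed, post-implantation epiblast and in human pluripotent cells, where its products act on the cell cycle and on TGF-beta signalling. Mouse ES cells of the naive state rely more on the miR-290 cluster, some of whose products share a seed with some miR-302 strands. The arrays were hybridised with cDNA made from total RNA, without a small RNA library, so the values are taken here as those of RNA that carries the hairpin, and not as levels of mature microRNA. Where each probe set lies on the hairpin or its primary transcript was not checked.

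The mature strands are shown because the seed decides which messages a member can reach. RefSeq sequences of mouse build GRCm38.p6 are given 5′ to 3′, with the seed in capitals. The strands cut from the 3′ arms come first, then those from the 5′ arms, then relatives outside the pair.
miR-302c-3p: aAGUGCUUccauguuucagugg
miR-302d-3p: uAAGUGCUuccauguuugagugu
miR-302c-5p: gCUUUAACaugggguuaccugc
miR-302d-5p: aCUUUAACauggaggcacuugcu
miR-302b-3p: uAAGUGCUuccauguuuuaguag
miR-291a-3p: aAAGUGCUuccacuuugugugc
miR-294-3p: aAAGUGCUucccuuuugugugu
miR-17-5p: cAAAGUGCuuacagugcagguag
miR-367-3p: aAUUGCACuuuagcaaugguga

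The 3′ arms of Mir302c and Mir302d carried the same 16 bases, aagugcuuccauguuu, but out of step by 1 position. AAGUGCU began at base 1 of miR-302c-3p and at base 2 of miR-302d-3p. As annotated, the seed AAGUGCU of miR-302d-3p was found in 5 of the 1738 mature strands of the table, those of Mir302b, Mir302d and the miR-290 cluster genes of miR-291a, miR-294 and miR-295. The 3′ strand of Mir302a was not analysed here. The seed AGUGCUU of miR-302c-3p was found in 1 strand, its own. On the 5′ arms both members had the seed CUUUAAC. The seed of miR-17-5p, from a proliferation-associated cluster, is AAAGUGC, which holds AAGUGC a base further on than miR-302d-3p does, and that of miR-367-3p is a different one.

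The hairpins lie close together on the plus strand, in the order Mir302b, Mir302c, Mir302a, Mir302d and Mir367, within 580 bases (chr3:127545228-127545807). Gaps of 43 to 65 bases separate them. The hairpins of the members are shown with their mature strands in capitals.
Mir302c: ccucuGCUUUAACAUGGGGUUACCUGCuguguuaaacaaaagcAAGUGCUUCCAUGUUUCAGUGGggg
Mir302d: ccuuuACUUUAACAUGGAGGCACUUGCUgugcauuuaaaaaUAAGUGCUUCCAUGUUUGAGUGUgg

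The first spans 68 bases (chr3:127545363-127545430) and the second 66 bases (chr3:127545624-127545689). Genes so close on 1 strand are commonly cut from 1 transcript. The 5 probe sets of the cluster may therefore read 1 RNA and are not independent replicates of a condition.

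Mir302c was lowest in ES cells and highest in untreated EBs, and both ligands left it between these levels. ES cells gave a log2 signal of 3.58, untreated EBs 5.97, RA EBs 5.18 and bexarotene EBs 4.51. Mir302d took the same order, at 4.39, 6.44, 5.77 and 4.97. In either gene the bexarotene array was nearer to ES cells and the RA array nearer to untreated EBs. All of these values are low for the arrays, whose median log2 signal was 6.66 to 6.69. Of the 8 values of Mir302c and Mir302d, 5 lay below their array's lower quartile, which was 5.19 to 5.22. In RNA from whole EBs, fewer cells that express a gene and less of its RNA per cell cannot be told apart.

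**Figure D1:**
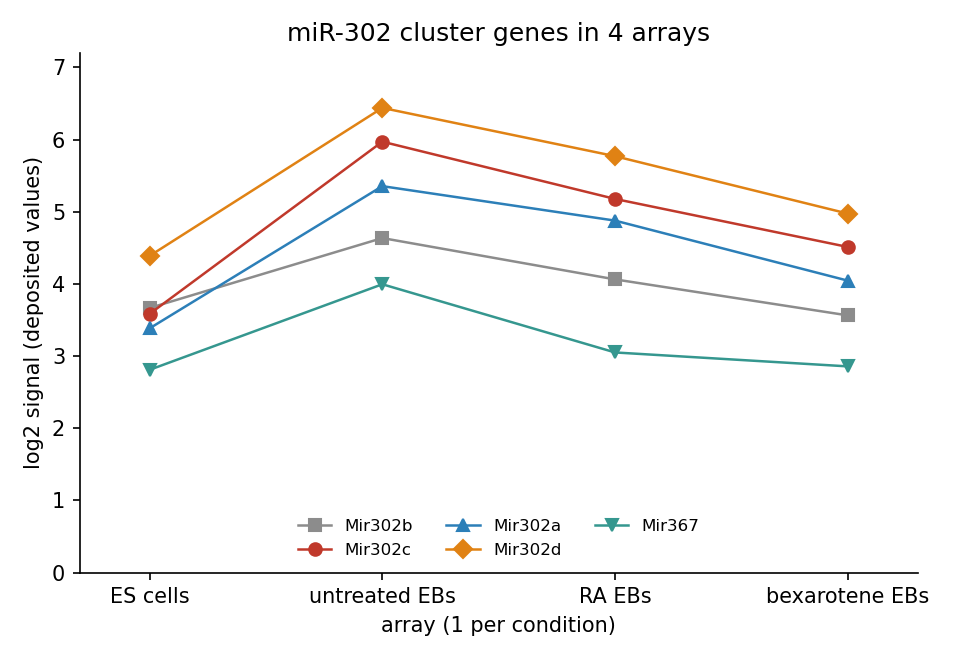
Log2 signal of the 5 genes of the miR-302 cluster (y axis) in the 4 arrays (x axis), 1 array per condition, with lines joining the values of a gene. All 5 genes were highest in untreated EBs and lower with RA, and lower still with bexarotene.

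The signal of both genes was higher on the array of untreated day 7 EBs than on that of ES cells. Mir302c was 5.23-fold and Mir302d 4.14-fold higher in untreated EBs, log2 differences of 2.39 and 2.05. Among the 296 microRNA genes these were the 1st and the 2nd largest increases, and Mir302a had the 3rd. In this contrast 13 microRNA genes, 4.39%, and 11.0% of all genes were at least 1.5-fold higher. The 13 include the genes of the cluster. The untreated array also entered the choice of the members, which favours a high value there. The ligand-treated EBs can be set against ES cells without that array. Mir302c was then 3.02-fold higher with RA and 1.90-fold higher with bexarotene, and Mir302d was 2.61-fold higher with RA and higher by 0.59 on the log2 scale with bexarotene, just past the threshold. These 4 calls rest on ES cell values below the lower quartile. With each array floored at its lower quartile, the differences were 0.02 and 0.04 for Mir302c and 0.58 and 0.04 for Mir302d, and none was past 1.5-fold. Only the RA value of Mir302d lay above the floor, so the other differences were lost by construction.

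In RA-treated EBs, Mir302c was 1.73-fold and Mir302d 1.59-fold lower than in untreated EBs, the contrast behind the choice. On the log2 scale, 33.2% and 32.6% of their rise over ES cells was missing with RA. With bexarotene they were 2.75-fold and 2.76-fold lower, which left out 61.1% and 71.4% of the rise. These shares depend on the low ES cell values. With each array floored at its lower quartile, Mir302c rose by 0.78 and differed from untreated by -0.77 with RA and -0.75 with bexarotene. Its ES cell, RA and bexarotene values all lay below the floor and were replaced by it. The share of its rise missing with either ligand was thus fixed by construction and says nothing about the ligands. Mir302d then rose by 1.25 and differed by -0.67 and -1.22. The background is 4.73% of microRNA genes and 2.22% of all genes at least 1.5-fold lower with RA. With bexarotene it is 3.38% of microRNA genes and 2.15% of all genes. The microRNA shares include genes of the cluster. Both ligand contrasts share the untreated array, so a high value on it lowers both.

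Bexarotene and RA can be compared directly without the untreated array, although both arrays entered the choice. Mir302c was 1.59-fold and Mir302d 1.74-fold lower with bexarotene than with RA, log2 differences of -0.67 and -0.80. Few genes separated the ligands by that much, since 59 of all genes, 0.296%, and 3 microRNA genes, 1.01%, were at least 1.5-fold lower with bexarotene. The 3 microRNA genes were Mir302a, Mir302d and Mir302c, and Mir302b was the next in order at -0.50. Among all 19938 genes, Mir302a was the 9th, Mir302d the 11th and Mir302c the 33rd lowest. None of the 291 microRNA genes outside the cluster was past 1.5-fold in either direction. This difference rests on low signals. With each array's values raised to its lower quartile at least, that of Mir302c became 0.02 and that of Mir302d -0.55. Both values of Mir302c lay below that level, so its difference was lost by construction.

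**Figure D2:**
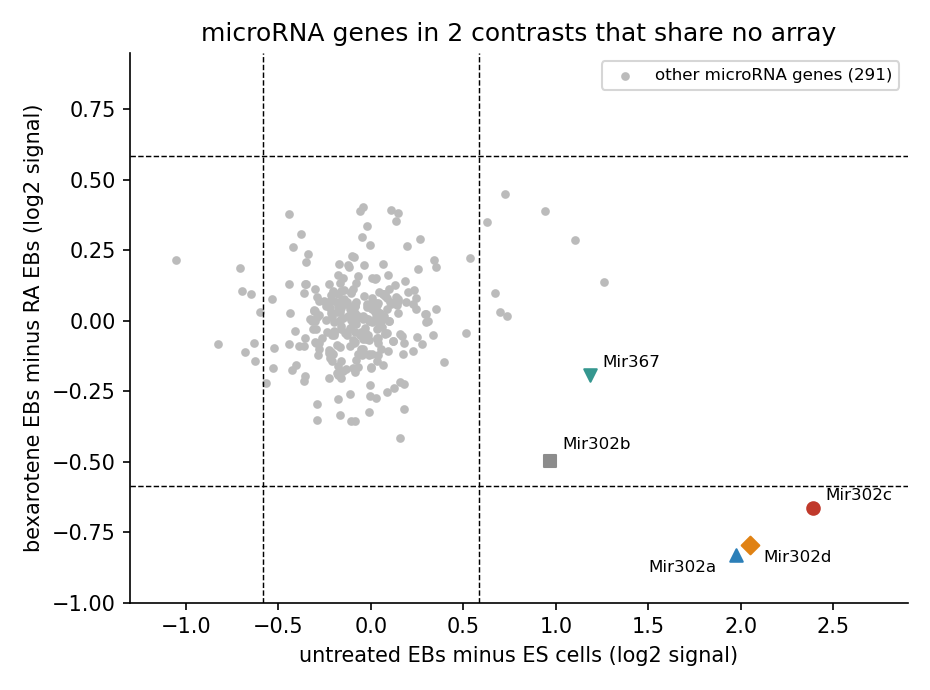
Each point is 1 of 296 microRNA genes, placed by its log2 difference between untreated EBs and ES cells (x axis) and between bexarotene and RA EBs (y axis), and dashed lines mark 1.5-fold. Mir302a, Mir302c and Mir302d stand alone at the lower right, and the 291 genes outside the cluster lie between the horizontal lines.

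The other genes of the cluster followed the members in part. Mir302a, the hairpin between them, had log2 signals of 3.38 in ES cells, 5.36 untreated, 4.88 with RA and 4.05 with bexarotene. Mir302b, the first hairpin, had 3.67, 4.64, 4.06 and 3.56, and Mir367, the last and the one with another seed, had 2.81, 4.0, 3.05 and 2.86. All 5 genes were past 1.5-fold higher in untreated EBs relative to ES cells, by 1.96-fold to 5.23-fold. With bexarotene all 5 were past 1.5-fold lower than untreated, by 2.10-fold to 2.76-fold. With RA 3 of 5 were. These were Mir302d at 1.59-fold, just inside the threshold, Mir302c, and Mir367 at 1.93-fold, while Mir302b at 1.49-fold and Mir302a at 1.39-fold were outside it. In these contrasts 4.39%, 3.38% and 4.73% of microRNA genes were called, and 11.0%, 2.15% and 2.22% of all genes. The cluster is itself part of these microRNA shares, which were 2.75%, 1.72% and 3.78% over the 291 microRNA genes outside it. Mir302c and Mir302d were picked for being lower with each ligand, so they add nothing to the ligand counts. Of the 3 other genes, all were called lower with bexarotene and only Mir367 with RA.

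The other genes of the cluster varied in how far they lay from their ES cell level with the ligands. Relative to ES cells, Mir367 differed by 0.24 with RA and 0.05 with bexarotene on the log2 scale, and Mir302b by 0.40 and -0.10, where Mir302c differed by 1.59 and 0.93 and Mir302d by 1.38 and 0.59. With the floor the members lay within 1.5-fold of ES cells, as given above. Of the values compared there only that of Mir302d with RA lay above the floor, so no likeness to Mir367 and Mir302b can be read from it. The rise that was missing with bexarotene was 66.4% for Mir302a, 96.0% for Mir367 and 111% for Mir302b. All 20 values of the cluster were below their array's median and 16 were below its lower quartile.

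By distance, the gene whose pattern lay closest to the mean of Mir302c and Mir302d was Fgf5, a growth factor used as a marker of the primed epiblast. Likeness was the Euclidean distance of log2 values centred over the 4 arrays, among 4980 genes with a range of at least 1.5-fold. Fgf5 had log2 signals of 7.06 in ES cells, 9.15 untreated, 8.48 with RA and 7.62 with bexarotene, a distance of 0.149. Its differences of -0.66 with RA and -1.53 with bexarotene can be read beside the -0.67 and -1.46 of Mir302d. Mir302a was next, at 0.205. Jakmip2 (0.246), Hba-x, an embryonic globin (0.25), Cbln1, a secreted synapse organiser (0.296), Fzd8, a Wnt receptor (0.361), and Nkx2-2, a homeobox gene of the ventral neural tube (0.362), came after it. Klhl4 (0.394), Fosb (0.414) and Lrig3 (0.435) completed the 10 nearest. Mir367 and Mir302b came in places 338 and 375. Among 42 microRNA genes the nearest were Mir302a, Mir367, Mir302b, Mir717 and Mir145a, the last 2 at distances of 1.05 and 1.07. With 4 arrays a likeness of this kind is loose. Ranking by Pearson correlation kept 3 of the 10 genes, and Fosb (0.998) then stood above Fgf5 (0.996). The arrays used also entered the choice of the members.

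The cluster lies inside Larp7, which encodes an RNA-binding protein of the 7SK particle and is read from the minus strand, opposite to the hairpins. Larp7 had log2 signals of 9.74, 10.19, 9.91 and 9.85 in ES cells, untreated, RA and bexarotene EBs. It was lower by less than 1.5-fold with RA (-0.28) and with bexarotene (-0.34) and differed by -0.06 between the ligands. Of the other protein genes within 200 kb that were measured, Ank2, an ankyrin, differed by -0.16 and -0.53, Zgrf1 by -0.34 and -0.26, and Neurog2, a neural factor, by 0.49 and 0.24. None of these 4 genes was past 1.5-fold with a ligand.

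RefSeq also places a long non-coding RNA, Gm51018, over the cluster on its own strand. Its promoter is shown because it is the annotated start site upstream of all 5 hairpins. It is given in GRCm38.p6 on the plus strand (chr3:127544839-127545138), 250 bases before the start and 50 from it on. Capitals mark a Sox core motif and a TATA box motif.
Gm51018 promoter: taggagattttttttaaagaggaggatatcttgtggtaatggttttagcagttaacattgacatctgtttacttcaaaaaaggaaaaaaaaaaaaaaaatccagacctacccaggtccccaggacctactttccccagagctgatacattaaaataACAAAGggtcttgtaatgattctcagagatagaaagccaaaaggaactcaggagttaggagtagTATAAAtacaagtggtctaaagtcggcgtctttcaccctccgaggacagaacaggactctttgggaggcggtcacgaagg

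TATAAA, searched on the sense strand, began 30 bases before the start and is found in 8.32% of 32851 promoters of this length. ACAAAG, the core of Sox factor sites, searched on both strands, began 94 bases before the start and is found in 18.7%. The octamer ATGCAAAT of POU factors had no match and is found in 1.74%. The retinoid receptor half-sites AGGTCA (16.3%), GGTTCA (10.4%) and GGGTCA (13.7%), on both strands, had no match. These are matches of letters in this window only.

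Of 7 factors tied to miR-302 transcription in earlier work, Tcf7l1, the Wnt pathway repressor, came nearest to the order of the members over the arrays. It had log2 signals of 10.36 in ES cells, 10.72 untreated, 10.47 with RA and 10.47 with bexarotene, and the ligands differed by 0.0049. No other factor was lowest in ES cells and highest in untreated EBs. Pou5f1, Nanog and Zfp42, factors of the ES cell state, were lower in untreated EBs, where the cluster was higher, than before differentiation. Pou5f1 had log2 signals of 11.67, 8.78, 9.42 and 8.81 in ES cells, untreated, RA and bexarotene EBs, and Nanog had 11.65, 9.18, 9.91 and 9.59. Sox2 stayed between 11.02 and 11.43. With RA, 4 of the 7 were past 1.5-fold higher than untreated (Pou5f1 0.64, Nanog 0.72, Zfp42 0.66 and Nr2f2 0.70 on the log2 scale) and none lower, beside 2.07% of all genes higher. The list's median was 0.64. With bexarotene 1 was, Nr2f2 at 0.64, beside 1.48% of all genes, and the median was 0.08. Between the ligands, Pou5f1 was 1.52-fold lower with bexarotene, the only one of the 7 past the threshold. Sall4, at 11.25, 11.33, 10.83 and 10.76, and Tcf7l1, at differences of -0.25 and -0.25 from untreated, were lower with both ligands by less than 1.5-fold.

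The markers of pluripotent states moved in separate directions. Of 12 naive pluripotency genes 11, and of 8 core genes 6, had fallen past 1.5-fold from their ES cell level in untreated EBs, against 8.52% of all genes. With RA, 5 of the 12 and 5 of the 8 were past 1.5-fold higher than untreated, against 2.07% of all genes. With bexarotene 1 of each list was, against 1.48%. Pou5f1, Nanog, Sox2 and Sall4 of the core list and Zfp42 of the naive list are also among the factors tied to miR-302 transcription above. The counts of these lists are thus not separate. Genes of the primed epiblast followed the cluster in part. Of 14 measured, 6 were past 1.5-fold higher and 3 lower in untreated EBs, relative to ES cells, beside 11.0% and 8.52% of all genes. With RA 5 were lower and 2 higher, beside 2.22% and 2.07% of all genes. With bexarotene 7 were lower and 1 higher, beside 2.15% and 1.48%. The list had medians of -0.22 and -0.59 beside 0 and -0.01 over all genes. The higher ones were the Nodal inhibitors Lefty1 and, with RA, Lefty2, which are also on the list of described targets.

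Of those epiblast genes, 3 were also past 1.5-fold lower with bexarotene than with RA, beside 0.296% of all genes, as were 3 genes of the cluster. They were Fgf5 at -0.87, Dnmt3b, a de novo DNA methyltransferase, at -0.71, and Otx2, an anterior homeobox factor, at -0.64. Otx2 had log2 signals of 9.82 in ES cells, 11.64 untreated, 10.29 with RA and 9.65 with bexarotene, and Dnmt3b had 9.99, 9.51, 9.55 and 8.85. Otx2 thus shared the peak in untreated EBs, and Dnmt3b was highest in ES cells. Other genes of the list were lower by far more than the cluster with both ligands. Cer1, a Nodal and BMP antagonist, differed by -4.04 with RA and -3.98 with bexarotene, Hesx1 by -3.01 and -3.56, and Foxd4 by -2.93 and -3.13. Cer1, Hesx1 and Foxd4 are thus among the 5 genes of the list called lower with RA and the 7 with bexarotene. Eomes, a mesendoderm factor that is also on the early lineage list below, differed by -0.48 and -0.93. How far the number of epiblast-like cells accounts for the cluster's values was not tested.

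**Figure D3:**
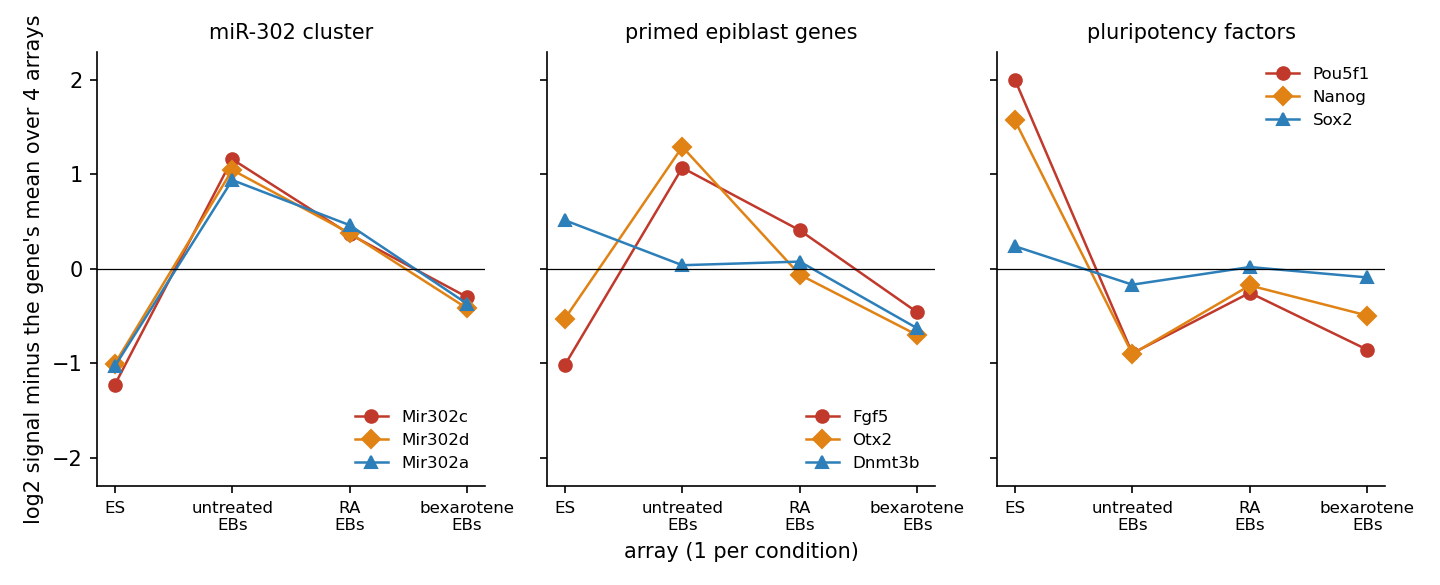
Log2 signal of each gene minus its mean over the 4 arrays (y axis) in ES cells, untreated, RA and bexarotene EBs (x axis), 1 array each, for cluster genes, primed epiblast genes and pluripotency factors. Fgf5 and Otx2 peaked in untreated EBs as Mir302c and Mir302d did, and Pou5f1 and Nanog were highest in ES cells. The list of 14 primed epiblast genes was mixed. From ES cells to untreated EBs, 6 of them rose past 1.5-fold and 3 (Nodal, Lefty1 and Lefty2) fell past it.

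The RNAs of proteins that make and load microRNAs were mostly within 1.5-fold of untreated EBs. Of 15 maturation genes, 1 was past 1.5-fold lower with RA and with bexarotene, beside 2.22% and 2.15% of all genes. It was Lin28a, an RNA-binding protein that blocks let-7 processing, with log2 signals of 9.49, 10.16, 9.39 and 9.57 in ES cells, untreated, RA and bexarotene EBs. Drosha (0.05 with RA and 0.01 with bexarotene), Dgcr8 (-0.24 and -0.28) and Dicer1 (-0.30 and -0.40) were within 1.5-fold of untreated. Relative to ES cells, 4 were past 1.5-fold higher in untreated EBs, beside 11.0% of all genes. They differed as follows on the log2 scale, Lin28b by 1.53, Prkra by 1.28, Lin28a by 0.67 and Ago1 by 0.62.

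In the miR-17 family clusters, whose miR-17-5p seed is shown above, some genes were lower with the ligands and others were not. Of 13 measured genes none was past 1.5-fold in untreated EBs against ES cells, beside 4.39% of microRNA genes higher and 3.04% lower. With RA 7 were past 1.5-fold lower and with bexarotene 4, beside 4.73% and 3.38% of microRNA genes, and the medians were -0.62 and -0.46. With RA the 7 were Mir17 (-0.67), Mir18 (-0.88), Mir19a (-1.0), Mir19b-1 (-0.81), Mir19b-2 (-0.62), Mir20a (-0.66) and Mir363 (-1.02). Mir17, Mir18, Mir19a and Mir363 were the 4 with bexarotene. The 7 and the 4 are themselves among the 14 and 10 microRNA genes behind these shares. Genes of 1 cluster may be cut from 1 transcript, so the 13 are not independent. Mir20b differed by 0.11 and 0.18, and Mir106a, Mir93 and Mir25 by 0.02, -0.01 and -0.01 with bexarotene. Mir17 had log2 signals of 6.47 in ES cells, 6.77 untreated, 6.10 with RA and 6.12 with bexarotene. Between the ligands none was past 1.5-fold, beside 1.01% of microRNA genes lower with bexarotene and none higher. The median was 0.09, where that of the miR-302 cluster was -0.67. The miR-290 cluster was not analysed here.

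Messages described as targets of the miR-302 family were mostly within 1.5-fold of untreated EBs. Of 24 measured, 4 were past 1.5-fold higher with RA and 3 with bexarotene, 16.7% and 12.5% beside 2.07% and 1.48% of all genes, and none was lower. The median was 0.13 with either ligand, and it was -0.01 between them. Lefty1 differed by 0.97 with RA and 0.79 with bexarotene. Ccnd1, the G1 cyclin D1, differed by 0.77 and 0.61 and Nr2f2, a nuclear receptor that is also among the 7 factors above, by 0.70 and 0.64. Lefty2 differed by 0.69 and 0.40. The lowest was Lats2, a Hippo pathway kinase, at -0.33 and -0.38. In untreated EBs, where the cluster was highest, 11 of the 24 were past 1.5-fold higher than in ES cells and 3 lower, beside 11.0% and 8.52% of all genes, with a median of 0.51. Those lower were Lefty1, Lefty2 and Rbl2, a pocket protein. What part microRNAs had in any of these levels was not tested.

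**Figure D4:**
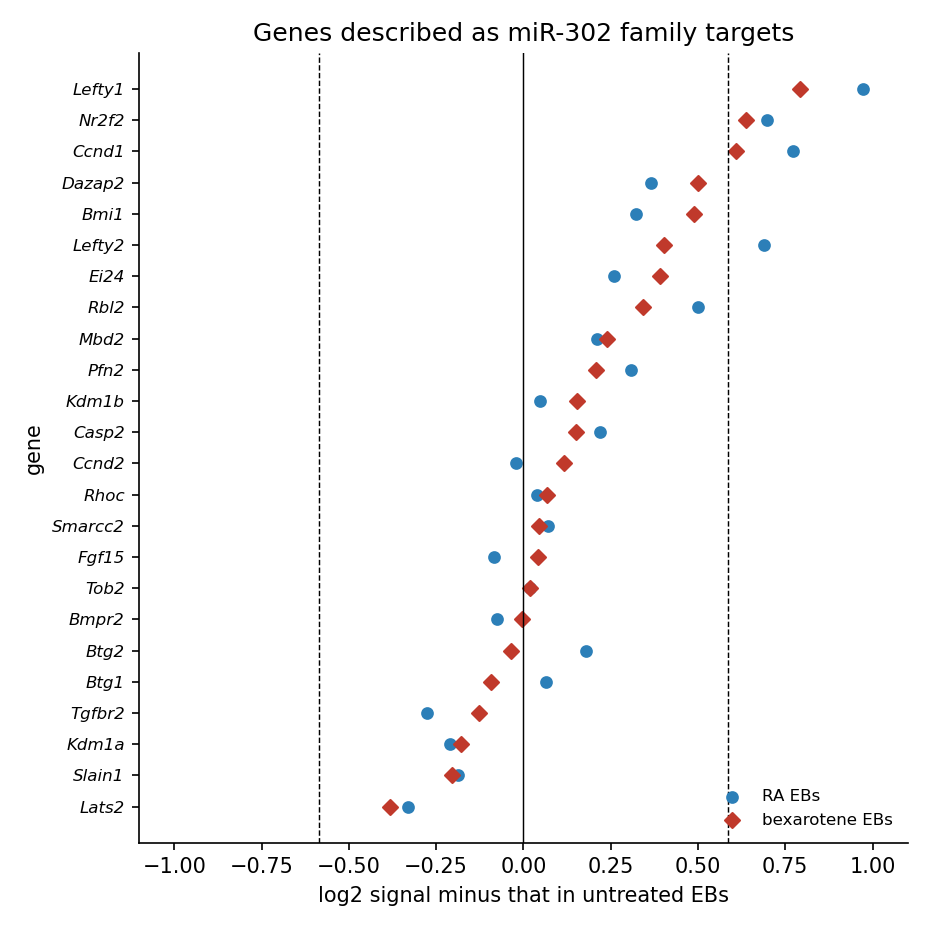
Log2 signal minus that in untreated EBs (x axis) for 24 genes described as miR-302 family targets (y axis), with 1 point per ligand and dashed lines at 1.5-fold. Lefty1, Ccnd1 and Nr2f2 lie to the right of the upper line with both ligands, Lefty2 with RA only, and none lies to the left of the lower line.

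The markers of other cells an EB can hold bear on what the RNA came from. Of 14 early lineage genes, 9 were past 1.5-fold higher in untreated EBs relative to ES cells, beside 11.0% of all genes. With RA 3 were past 1.5-fold higher and 2 lower than untreated, beside 2.07% and 2.22% of all genes. With bexarotene these were 3 and 4, beside 1.48% and 2.15%. Pax6 (1.43 and 1.42), Nes (1.26 and 1.17) and Tubb3 (1.59 and 1.04), genes of neural progenitors and neurons, were higher with RA and bexarotene. Foxa2, of endoderm and floor plate (-1.26 and -1.15), and Kdr, of vascular progenitors (-1.65 and -1.0), were lower with both. Eomes (-0.93) and Mixl1 (-0.67) were past 1.5-fold lower with bexarotene. The rest of the list stayed within 1.5-fold with both ligands. They include Gata4 (0.27 and 0.25), Gata6 (0.18 and 0.18), Sox17 (0.05 and -0.01), Afp (0.20 and 0.40) and Ttr (0.22 and -0.27), also genes of endoderm. Sox1, a neural gene (0.16 and 0.10), and Mesp1, of mesoderm (-0.29 and -0.32), were the others. Of 16 neural microRNA genes, Mir219a-2 was higher with both ligands (1.77 and 2.00) and Mir218-1 lower with RA (-0.90). The 41 genes of 6 other lists (Hox cluster, muscle, epithelial, endothelial and blood, endoderm and liver, let-7) had none past 1.5-fold among EB arrays. Over all microRNA genes, 1.35% were higher and 4.73% lower with RA, and 1.69% and 3.38% with bexarotene. Between the ligands 1.01% were lower with bexarotene. A count of 0 in 41 is not far from these shares. Several of the 41 read low, such as Mir1a-2 at 2.46 and Mir206 at 2.56 in untreated EBs, below the lower quartile. The part of these other cells in the values of Mir302c and Mir302d was not tested.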

How the data were processed

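The authors deposited log2 signals per probe set, made with Affymetrix Expression Console. The labels name GCRMA and the article RMA, so the background step is unsettled. Total RNA was labelled with a whole-transcript cDNA kit. The annotation gives 1 symbol to 21789 of 35556 probe sets, several to 1621 and none to 12146. Only the first were used, and a gene with several stood by the one with the highest mean. From these values differences, ranks, counts past 1.5-fold and profile distances were computed (Python 3.11.15, pandas 2.3.3, numpy 2.4.6). The difference and the 1.5-fold count were tested on simulated data for 1 contrast, and the other steps were not. Loess used statsmodels 0.14.6. The number of arrays, 1 per condition, limits precision. The members and gene lists were chosen with earlier results of these data known. Named genes were drawn from the cluster, relatives by seed, Larp7, nearest profiles, and list members past 1.5-fold with up to 4 others. They were also drawn from the 5 microRNA genes at each end of a contrast. Those contrasts were each ligand against untreated EBs, and untreated EBs against ES cells. Not every gene under this rule is named. Lists of pluripotency and lineage genes are given partly by counts. Alternatives were other scalings, a floor, filters, a 2-fold threshold, probe set means and Pearson correlation.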

Additional observations from a re-analysis of the deposited data

How the results depend on the processing

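No paired analysis was possible because each condition had 1 array. Of 36 values of Mir302c and Mir302d under other scalings and a floor, 35 kept their direction and 29 their side of 1.5-fold. Most of the 36 come from quantile or loess scaling of values that were already normalized. Agreement there was likely beforehand, so these counts are a weak check. With a floor at the 25th percentile, Mir302c differed by 0.0205 between bexarotene and RA, by 0.0167 between RA and ES cells and by 0.0372 between bexarotene and ES cells, and Mir302d by -0.55, 0.58 and 0.0372. Under quantile normalization Mir302d differed by 0.56 between bexarotene and ES cells. The floor replaces low values, so a difference between values below it is lost by construction. The 0.0205, 0.0167 and 0.0372 are only gaps between the lower quartiles of the arrays, and their direction carries no information on the genes. Across the alternatives, Mir302c ranged from -0.84 to -0.77 for RA and from -1.51 to -0.75 for bexarotene against untreated EBs, and Mir302d from -0.73 to -0.67 and from -1.52 to -1.22.

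Counts of cluster genes moved as follows. The 5 higher in untreated EBs than in ES cells, and the 5 lower with bexarotene than untreated, became 2 each with the floor. The 3 lower with RA than untreated became 0 at 2-fold, and the 3 lower with bexarotene than RA became 0 at 2-fold and with the floor. Leaving out probe sets below the median of both arrays kept no cluster gene, so it gave no value for them. Over all microRNA genes, given at 2-fold, with the floor and with low probe sets left out, the 13 higher in untreated EBs than in ES cells became 6, 6 and 1. The 14 lower with RA became 2, 7 and 3, and the 4 higher became 2, 1 and 1. The 10 lower with bexarotene became 6, 5 and 2, and the 5 higher became 2, 3 and 2. The 3 lower with bexarotene than RA became 0 in each. The 9 that were lower in untreated EBs, against ES cells, became 1 at 2-fold and 5 with low probe sets left out. Of the 5 nearest microRNA genes, 3 were shared by Pearson correlation. The other scalings moved the median of all genes by under 0.1.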

Other observations

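Other microRNA genes at the ends of the contrasts were these. Mir219a-2, a neural and glial microRNA gene, had log2 signals of 6.54, 6.44, 8.20 and 8.43 in ES cells, untreated, RA and bexarotene EBs, and Mir181b-1 had 3.85, 4.48, 5.75 and 6.10. Mir100 was higher with both ligands, by 0.73 with RA and 0.86 with bexarotene. Mir717 took a shape near that of the cluster in the first contrasts, at 4.30, 5.56, 4.35 and 4.49, and differed by 0.14 between the ligands. Mir363 (-1.02 with RA and -0.95 with bexarotene) and Mir19a (-1.0 and -0.80), both of the miR-17 family clusters, were lower with both. Mir300 (-1.05), Mir485 (-0.83), Mir382 (-0.71) and Mir377 (-0.70), which belong to the imprinted microRNA cluster of the Dlk1-Dio3 region, were 4 of the 5 microRNA genes with the largest decrease from ES cells to untreated EBs.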
